A study of Mus musculus with 24 samples.

Results

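Expression was compared between myoblasts given siRNA against Ift88 (IFT88KD) and myoblasts given a negative control siRNA, 2 h after both had been put back on a surface. The comparison rested on the 3 arrays labelled IFT88KD and the 3 labelled control in this state, 6 of the 24 arrays of the series, paired by replicate number and described across all genes. All cells were C2C12, an immortal line of mouse skeletal muscle myoblasts, held in DMEM with 20% fetal bovine serum. The replated cells had first been held in suspension, which stops myoblasts from dividing, and were then allowed to attach in the same medium. The other 18 arrays had the same 3 against 3 layout in proliferating attached cells, in quiescent suspended cells and in cells kept 48 h in 2% horse serum to differentiate. The knockdown was made in a whole culture of 1 cell line, and the labels do not give the siRNA sequence or the amount of IFT88 protein left. Nothing in the labels says whether replicates came from separate cultures, so the p-values measure the spread between these samples only.

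IFT88 is a core subunit of the intraflagellar transport particle, which carries building material along the primary cilium, the single sensory antenna that most resting cells grow from a centriole. Cells in G0 build the cilium and take it down when they return to the cell cycle, and the cilium carries Hedgehog and growth factor signalling. Myoblasts that attach again after suspension switch on immediate early genes within hours and reach DNA synthesis much later, so that genes of mitosis are normally low soon after replating. Myoblasts can also leave the cycle for good and build sarcomeres, under the control of the transcription factors MYOD and myogenin.

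Values are log2 expression as deposited, and a difference of 1 is a doubling. A gene was called higher or lower where limma gave an adjusted p under 0.05 among 8600 genes tested, in a fit that compared arrays of equal replicate number. That fit took in all 24 arrays, so its SE and p-values rest on a spread shared by the 4 states. Median signal was 2.92 to 2.98 log2 on the 6 replated arrays and 3.58 to 3.85 on the other 18, the median change over all genes was 0.01, and any pair of replated arrays correlated at 0.991 to 0.995. The 3′ minus 5′ signal of the actin control probes, a sign of RNA integrity, ran from 1.21 to 1.90 log2 and moved with the replicate number rather than with the siRNA. Of 8 myoblast markers on the array 7 were measured, among them Myod1 at 7.17 ± 0.33 log2 in control cells (mean ± SD, n = 3), while Pax7, the marker of satellite cells, lay under the 40th percentile of all 24 arrays. All 7 endothelial markers lay under that percentile on all 24 arrays and all 6 epithelial markers on the 6 replated ones.

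Ift88 itself was measured by 1 probe set. It read 2.72, 2.31 and 2.86 log2 on control replicates 1 to 3 and 2.01, 2.10 and 2.02 on IFT88KD replicates 1 to 3. Every IFT88KD array lay below every control array, but the pair of replicate 2 differed far less than the others, with pair differences of -0.71, -0.20 and -0.84. Ift88 fell by 0.59 log2 (SE 0.12, adjusted p = 0.00803). The 40th percentile of the replated arrays was 1.96 to 1.99 log2, so the IFT88KD level was close to the dim end of the signal and the size of the fall is uncertain. Without pairing the adjusted p was 0.0535, and it was 0.0561 without replicate 1 and 0.0685 without replicate 3. The Ift88 change was -0.69 in quiescent, -0.52 in proliferating and -0.01 in differentiating cells, and its difference from the differentiating change, -0.58 (SE 0.17, adjusted p = 0.0948), did not pass.

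Across all genes 955 were called, 11.1% of those tested, with 539 higher (6.27%) and 416 lower (4.84%) in IFT88KD cells. Counts of called list members given below are to be read beside these shares. The lists were chosen with earlier results of these data known, so the contrast with these shares is no independent test. The rises were led by genes of cell division such as Mki67, Top2a, Ube2c and Cdk1, with the complement genes C1ra and C1s1, the chemokine gene Cxcl12 and the muscle genes Myh1 and Myl4. The falls were led by Sprr2h, by the immune genes Ccl8 and Cd14, by the protease inhibitor gene Slpi and by Mydgf. A change of at least 1 log2 was seen in 38 of the genes called higher and 10 of those called lower. The 3 IFT88KD arrays lay all above the control arrays for 9.42% of all genes and all below for 7.7%, and 692 of the called genes were among these. Without pairing 207 genes passed (129 higher, 1.5%, and 78 lower, 0.907%), all of them among the 955. Without replicate 1 the numbers were 414 higher and 183 lower, without replicate 2 they were 295 and 201, and without replicate 3 they were 259 and 353, so that falls then outnumbered rises. Of the 955 genes 258 passed in each of these 3 fits. With only the replated arrays in the fit 256 genes passed with pairing (171 higher and 85 lower) and 80 without it.

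**Figure D1:**
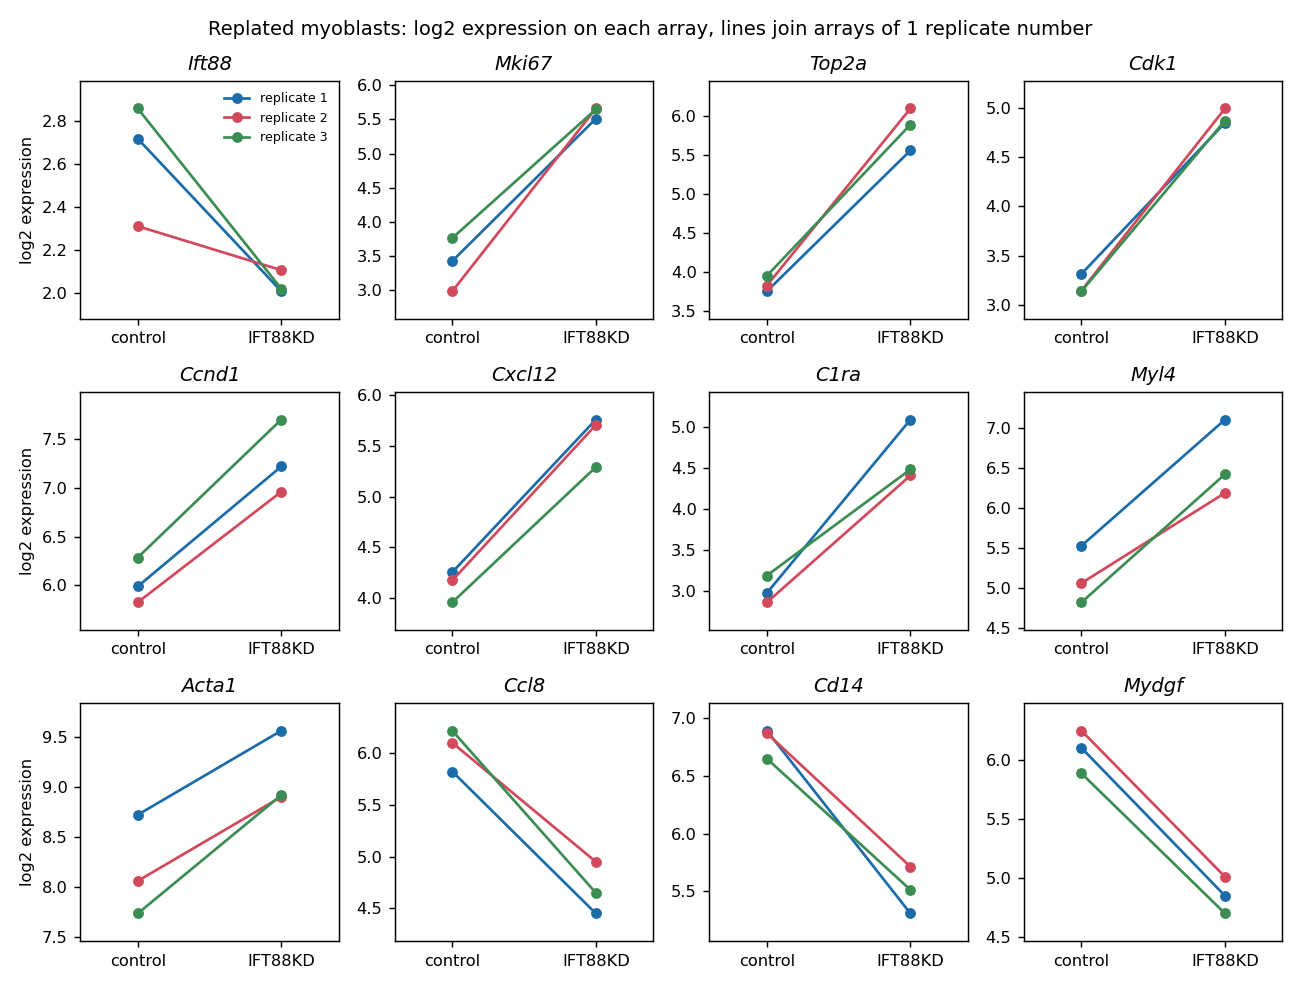
Log2 expression of 12 genes on the 6 replated arrays, control on the left and IFT88KD on the right of each panel, with a line joining arrays of the same replicate number and a separate vertical scale for each gene that does not start at 0. In all 12 panels the IFT88KD points lie on one side of the control points, and the Ift88 line of replicate 2 is the flattest of its panel.

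A broad rise was seen in the machinery of mitosis. Of 72 tested genes in 5 lists (mitotic cyclins and kinases, kinesins, kinetochore and cytokinesis, mitotic exit, chromosome structure and proliferation markers), 46 rose, Wee1 fell and 25 did not pass, against 6.27% higher among all genes. Their median change was 0.54 log2, against 0.01 for all genes, and 70 of the 72 lay above 0. Without pairing 33 still rose, and without replicate 1, 2 or 3 the numbers were 38, 34 and 36. On all 3 control arrays 30 of the 72 lay under the 40th percentile, against 15 on all 3 IFT88KD arrays, so the control level of many is only weakly measured and the size of their rise is uncertain. A culture in which more cells hold these transcripts and a culture in which each cell holds more of them cannot be told apart in bulk RNA.

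Mki67, which encodes the Ki-67 protein that coats mitotic chromosomes, showed the largest rise. It read 3.43, 2.98 and 3.76 log2 on control replicates 1 to 3 and 5.51, 5.66 and 5.65 on the IFT88KD ones, a rise of 2.22 log2 (SE 0.14, adjusted p = 1.38e-06). The 3 IFT88KD arrays were nearly level with each other, and the lowest of them stood far above the highest control array. Top2a, which encodes the topoisomerase that untangles sister chromatids, read 3.75, 3.83 and 3.95 in control and 5.56, 6.10 and 5.89 in IFT88KD cells, and rose by 2.01 log2 (SE 0.11, adjusted p = 3.30e-07). Ube2c, which encodes the ubiquitin-conjugating enzyme of the anaphase-promoting complex, read 2.45, 2.65 and 2.78 in control and 4.29, 5.15 and 4.40 in IFT88KD cells and rose by 1.98 log2 (SE 0.17, adjusted p = 1.36e-05). The control arrays of both genes were close together, and IFT88KD replicate 2 was the highest of its group for each.

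Among mitotic cyclins and kinases 13 of 19 rose and 1 fell, with a median of 0.58 log2, and 11, 10 and 11 rose without replicates 1, 2 and 3. Cdk1, the kinase that drives entry into mitosis, read 3.31, 3.14 and 3.14 log2 in control and 4.85, 4.99 and 4.87 in IFT88KD cells and rose by 1.71 log2 (SE 0.09, adjusted p = 2.71e-07), with the pairs almost parallel. Its partner cyclins followed, with rises of 1.44 (SE 0.13) for Ccna2, cyclin A2, and 1.52 (SE 0.21) for Ccnb2, cyclin B2. Ccnb2 read 1.54, 1.70 and 1.99 in control cells, under the 40th percentile on every array, and 2.84, 3.82 and 3.13 in IFT88KD cells. Bub1, a kinase of the spindle checkpoint, was likewise dim in control cells and rose by 1.50 log2 (SE 0.10, adjusted p = 2.21e-06), although a second Bub1 probe set changed by only 0.16, and the second Ccna2 probe set by 0.41. Pbk, a kinase active in mitosis, rose by 1.12 (SE 0.15), and Cks2, a small Cdk1-binding protein and the brightest gene of the list, by 0.44 (SE 0.08, adjusted p = 0.101 without pairing). Wee1, the kinase that holds CDK1 inactive, read 6.83, 6.58 and 5.86 in control and 6.16, 5.91 and 5.86 in IFT88KD cells. It fell by 0.45 log2 (SE 0.13, adjusted p = 0.0374), yet the groups met at replicate 3 and the adjusted p was 0.236 without pairing. Of the named genes, calls lost on leaving out 1 replicate were those of Wee1 (replicate 1 or 2, adjusted p up to 0.226).

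The kinetochore, spindle and cytokinesis list had the highest median of the 37 lists, with 16 of 22 genes higher, 0 lower and a median change of 0.74 log2. Birc5, which encodes survivin of the chromosomal passenger complex, rose by 1.33 log2 (SE 0.10, adjusted p = 4.06e-06), and its partner Incenp by 1.04 (SE 0.12). Anln, which encodes the cleavage furrow protein anillin, read 3.16, 3.47 and 3.20 in control and 4.33, 4.71 and 4.63 in IFT88KD cells and rose by 1.28 log2 (SE 0.10, adjusted p = 6.88e-06). Racgap1, a subunit of the centralspindlin complex of the dividing midzone, rose by 1.27 (SE 0.11) from a control level under the 40th percentile on every array. Cenpa, the histone that marks centromeres, rose by 1.0 (SE 0.09), and Prc1, which bundles midzone microtubules and was the brightest of the list, by 0.93 (SE 0.10). The lowest IFT88KD array stood above the highest control array for 18 of the 22 genes, against 9.42% of all genes.

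Of 9 mitotic kinesin motors 3 rose, Kif23, Kif22 and Kif11, by 0.79 (SE 0.11), 0.66 (SE 0.14) and 0.58 (SE 0.10). All 3 were under the 40th percentile on every control array, a second Kif23 probe set changed by -0.02, and 1 of the 3, Kif23, passed without pairing (adjusted p = 0.0575 for Kif22 and 0.0845 for Kif11). Among genes of mitotic exit 4 of 6 rose. Cdc20, the activator of the anaphase-promoting complex, read 3.87, 3.86 and 3.78 log2 in control and 5.23, 5.04 and 4.88 in IFT88KD cells and rose by 1.21 log2 (SE 0.13, adjusted p = 7.95e-05), and Pttg1, which encodes securin, rose by 0.68 (SE 0.10). Anapc1, a scaffold of the complex, rose by 0.27 (SE 0.07), a call lost without pairing (adjusted p = 0.133). The brightest member, Ube2s, changed by 0.14 log2 (SE 0.07, adjusted p = 0.26) and did not pass. Of 16 genes of chromosome structure and proliferation 10 rose, among them Stmn1, which encodes a microtubule destabiliser, by 1.06 (SE 0.12), and the condensin genes Smc2 and Ncapg2 by 1.03 (SE 0.10) and 0.65 (SE 0.14). That count was 5 without pairing and 7, 4 and 5 without replicates 1, 2 and 3, and a second Stmn1 probe set changed by 0.34. Among the named genes, leaving out 1 replicate ended the calls for Kif22 (replicate 1 or 3, adjusted p up to 0.0777), Anapc1 (replicate 1, 2 or 3, adjusted p up to 0.159) and Ncapg2 (replicate 2 or 3, up to 0.0754).

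Promoters of the leading division genes are shown because 2 short motifs recurred in them. TTTGAA is the cell cycle genes homology region and CCAAT the box bound by NF-Y, both known from promoters of genes used in G2 and mitosis. Both were searched on both strands (TTCAAA and ATTGG on the other strand) in RefSeq promoter windows of 300 bases, 250 before and 50 after the start, in the build GRCm38.p6. TTTGAA was found for 36 of 58 division genes with a promoter in the table (62.1%) and 13.8% of 6976 tested genes with a promoter. CCAAT was found for 69% against 43.2%, and both together for 53.4% against 5.55%. Of all 32851 promoters 17.9% hold TTTGAA, 37.4% CCAAT and 6.95% both. Among the division genes that rose TTTGAA was found for 67.5%, and among all genes that rose for 21.6%, against 14.3% of those that fell. Of the 92 rising genes with TTTGAA 27 were these division genes, so the 21.6% partly repeats them. Division genes that did not rise held it in 50% and CCAAT in 66.7%, against 70% for CCAAT in those that rose. The 5 sequences are those of the largest rises with a single promoter in the table that holds both motifs, so their motifs were part of the choice. They run 5′ to 3′ from 250 bases before to 30 after the start, with capitals at each match of either motif on either strand. The positions are chr7:135716350-135716629 (minus strand) for Mki67, chr11:99024160-99024439 (minus) for Top2a, chr2:164769679-164769958 (plus) for Ube2c, chr10:69352883-69353162 (minus) for Cdk1 and chr9:70421525-70421804 (minus) for Ccnb2.
Mki67: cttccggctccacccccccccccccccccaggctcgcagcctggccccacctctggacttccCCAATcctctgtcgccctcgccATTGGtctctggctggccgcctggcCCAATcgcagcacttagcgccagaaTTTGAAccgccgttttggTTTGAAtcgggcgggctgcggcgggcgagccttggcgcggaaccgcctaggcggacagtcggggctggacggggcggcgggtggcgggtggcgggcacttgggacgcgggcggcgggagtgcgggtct
Top2a: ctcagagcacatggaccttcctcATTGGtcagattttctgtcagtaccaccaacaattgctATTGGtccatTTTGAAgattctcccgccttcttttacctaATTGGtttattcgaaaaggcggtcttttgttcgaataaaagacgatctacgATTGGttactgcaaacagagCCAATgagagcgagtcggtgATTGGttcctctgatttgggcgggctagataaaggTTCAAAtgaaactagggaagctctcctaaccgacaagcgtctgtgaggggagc
Ube2c: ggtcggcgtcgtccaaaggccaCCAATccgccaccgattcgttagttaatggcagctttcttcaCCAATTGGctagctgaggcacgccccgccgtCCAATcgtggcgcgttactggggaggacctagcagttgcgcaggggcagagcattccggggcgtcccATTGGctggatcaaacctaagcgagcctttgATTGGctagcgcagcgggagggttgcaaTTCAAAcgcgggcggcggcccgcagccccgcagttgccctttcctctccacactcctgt
Cdk1: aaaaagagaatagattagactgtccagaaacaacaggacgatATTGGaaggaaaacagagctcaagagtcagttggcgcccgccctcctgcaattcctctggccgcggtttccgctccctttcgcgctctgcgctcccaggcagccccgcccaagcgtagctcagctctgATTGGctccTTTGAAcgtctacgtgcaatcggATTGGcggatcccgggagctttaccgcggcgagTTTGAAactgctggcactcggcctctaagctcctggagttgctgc
Ccnb2: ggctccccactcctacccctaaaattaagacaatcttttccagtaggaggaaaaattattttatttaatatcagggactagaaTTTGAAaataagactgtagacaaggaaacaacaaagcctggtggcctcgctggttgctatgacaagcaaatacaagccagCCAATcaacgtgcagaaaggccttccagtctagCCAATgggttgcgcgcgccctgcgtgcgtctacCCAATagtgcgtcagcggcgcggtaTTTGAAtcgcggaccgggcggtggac
Mki67, Top2a, Cdk1 and Ccnb2 hold 2 TTTGAA matches each in these stretches and Ube2c 1, with 3 to 6 CCAAT matches. No TTTGAA match overlaps a CCAAT match, and in Ube2c a pair of CCAAT matches on opposite strands share bases. A match is a description of the letters and not evidence of a bound factor.

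Genes that act before mitosis moved less evenly. Of 33 genes of replication licensing and the fork 10 rose and 1 fell, with a median of 0.19 log2, 5 of which rose without pairing and 5 without replicate 3. Mcm3, a subunit of the replicative helicase, read 2.30, 1.99 and 1.83 log2 in control and 3.13, 2.66 and 3.65 in IFT88KD cells and rose by 1.11 log2 (SE 0.18, adjusted p = 0.00204), while 3 other Mcm3 probe sets changed by 0.21 to 0.73. Uhrf1, which guides DNA methylation after replication, rose by 1.10 (SE 0.08) from a control level under the 40th percentile, and its second probe set changed by 0.29. Pole, the catalytic subunit of the leading-strand polymerase, rose by 0.84 (SE 0.13), the primase subunit gene Prim1 by 0.64 (SE 0.13) and the clamp loader gene Rfc5 by 0.61 (SE 0.14). Cdt1, the licensing factor of G1, fell by 0.45 log2 (SE 0.10, adjusted p = 0.01), with an adjusted p of 0.152 without pairing. Pcna, the sliding clamp and the brightest of the list, changed by 0.06 (SE 0.08) and did not pass. Of 6 genes of nucleotide synthesis Tk1, thymidine kinase, rose by 0.95 log2 (SE 0.10, adjusted p = 1.19e-04), Rrm1, the large subunit of ribonucleotide reductase, rose by 0.52 (SE 0.09), and Dck, deoxycytidine kinase, fell by 0.40 (SE 0.09, adjusted p = 0.319 without pairing). On leaving out 1 replicate the named genes that lost their call were Rfc5 (replicate 1 or 3, adjusted p up to 0.126), Cdt1 (replicate 2, adjusted p = 0.0776) and Dck (replicate 1 or 2, up to 0.0972).

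Ccnd1, which encodes cyclin D1, the partner of CDK4 and CDK6 in G1, was the leading change among 18 genes of G1 and E2F. It read 5.99, 5.83 and 6.28 log2 in control and 7.22, 6.96 and 7.70 in IFT88KD cells. Every pair rose by a similar amount, no arrays overlapped, and the change was 1.26 log2 (SE 0.09, adjusted p = 2.21e-06), with 1.11 and 1.23 at its other probe sets. E2f8, a repressor of the E2F family, rose by 0.65 (SE 0.11), and Ccnd3, cyclin D3, by 0.41 (SE 0.09, adjusted p = 0.197 without pairing). The other 15 did not pass, among them Myc at 0.18 (SE 0.08) and E2f1 at -0.04 (SE 0.08). Among 10 CDK inhibitors and pocket proteins Cdkn1b, which encodes p27, a CDK inhibitor of resting cells, read 5.34, 5.46 and 5.31 in control and 4.76, 5.12 and 4.89 in IFT88KD cells and fell by 0.45 log2 (SE 0.13, adjusted p = 0.045). Rbl1, which encodes p107, rose by 0.34 (SE 0.10). Both calls were marginal, with adjusted p of 0.173 and 0.378 without pairing. Cdkn1a, which encodes p21 and was the brightest of these, read 10.47, 10.58 and 10.57 in control and 10.32, 10.43 and 10.48 in IFT88KD cells and did not pass (-0.13, SE 0.09). With 1 replicate left out, the named calls lost were those of Ccnd3 (replicate 2 or 3, adjusted p up to 0.0753), Cdkn1b (replicate 1, 2 or 3, adjusted p up to 0.199) and Rbl1 (replicate 1, 2 or 3, adjusted p up to 0.225).

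Genes that answer attachment and serum were counted in lists of their own, beside the 11.1% called among all genes. Of 23 immediate early genes only Klf2, a zinc finger factor, passed, with a rise of 0.53 log2 (SE 0.11, adjusted p = 0.00967) that was lost without pairing (adjusted p = 0.31). The list median was 0.07 log2, and Fos and Egr1, activated first on growth stimulation, changed by 0.45 (SE 0.36) and 0.23 (SE 0.16) and did not pass. Ptgs2, which encodes cyclooxygenase 2 and was the brightest of the list, read 10.89, 11.09 and 11.24 in control and 10.87, 11.00 and 11.01 in IFT88KD cells. Of 10 feedback inhibitors of MAP kinase signalling Spry1, which encodes sprouty 1, rose by 0.77 log2 (SE 0.14, adjusted p = 0.00396, or 0.0571 without pairing), while the brightest, Errfi1, did not pass (0.25, SE 0.13). Among 20 YAP and SRF targets Cnn1, which encodes the smooth muscle protein calponin 1, and Axl, a receptor kinase, rose by 0.62 (SE 0.09) and 0.29 (SE 0.09) (adjusted p = 0.108 and 0.27 without pairing). Ccn2 and Ankrd1, targets much used as YAP readouts, changed by 0.36 (SE 0.15) and 0.12 (SE 0.12) and did not pass. Among 17 genes linked to quiescent arrest Btg1, an antiproliferative gene, fell by 0.24 log2 (SE 0.07, adjusted p = 0.0463, or 0.264 without pairing), and the brightest, Gas1, changed by 0.01 (SE 0.09). The named calls not kept with 1 replicate left out were those of Klf2 (replicate 3, adjusted p = 0.0789), Axl (replicate 1, 2 or 3, adjusted p up to 0.322) and Btg1 (replicate 1, 2 or 3, adjusted p up to 0.224).

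**Figure D2:**
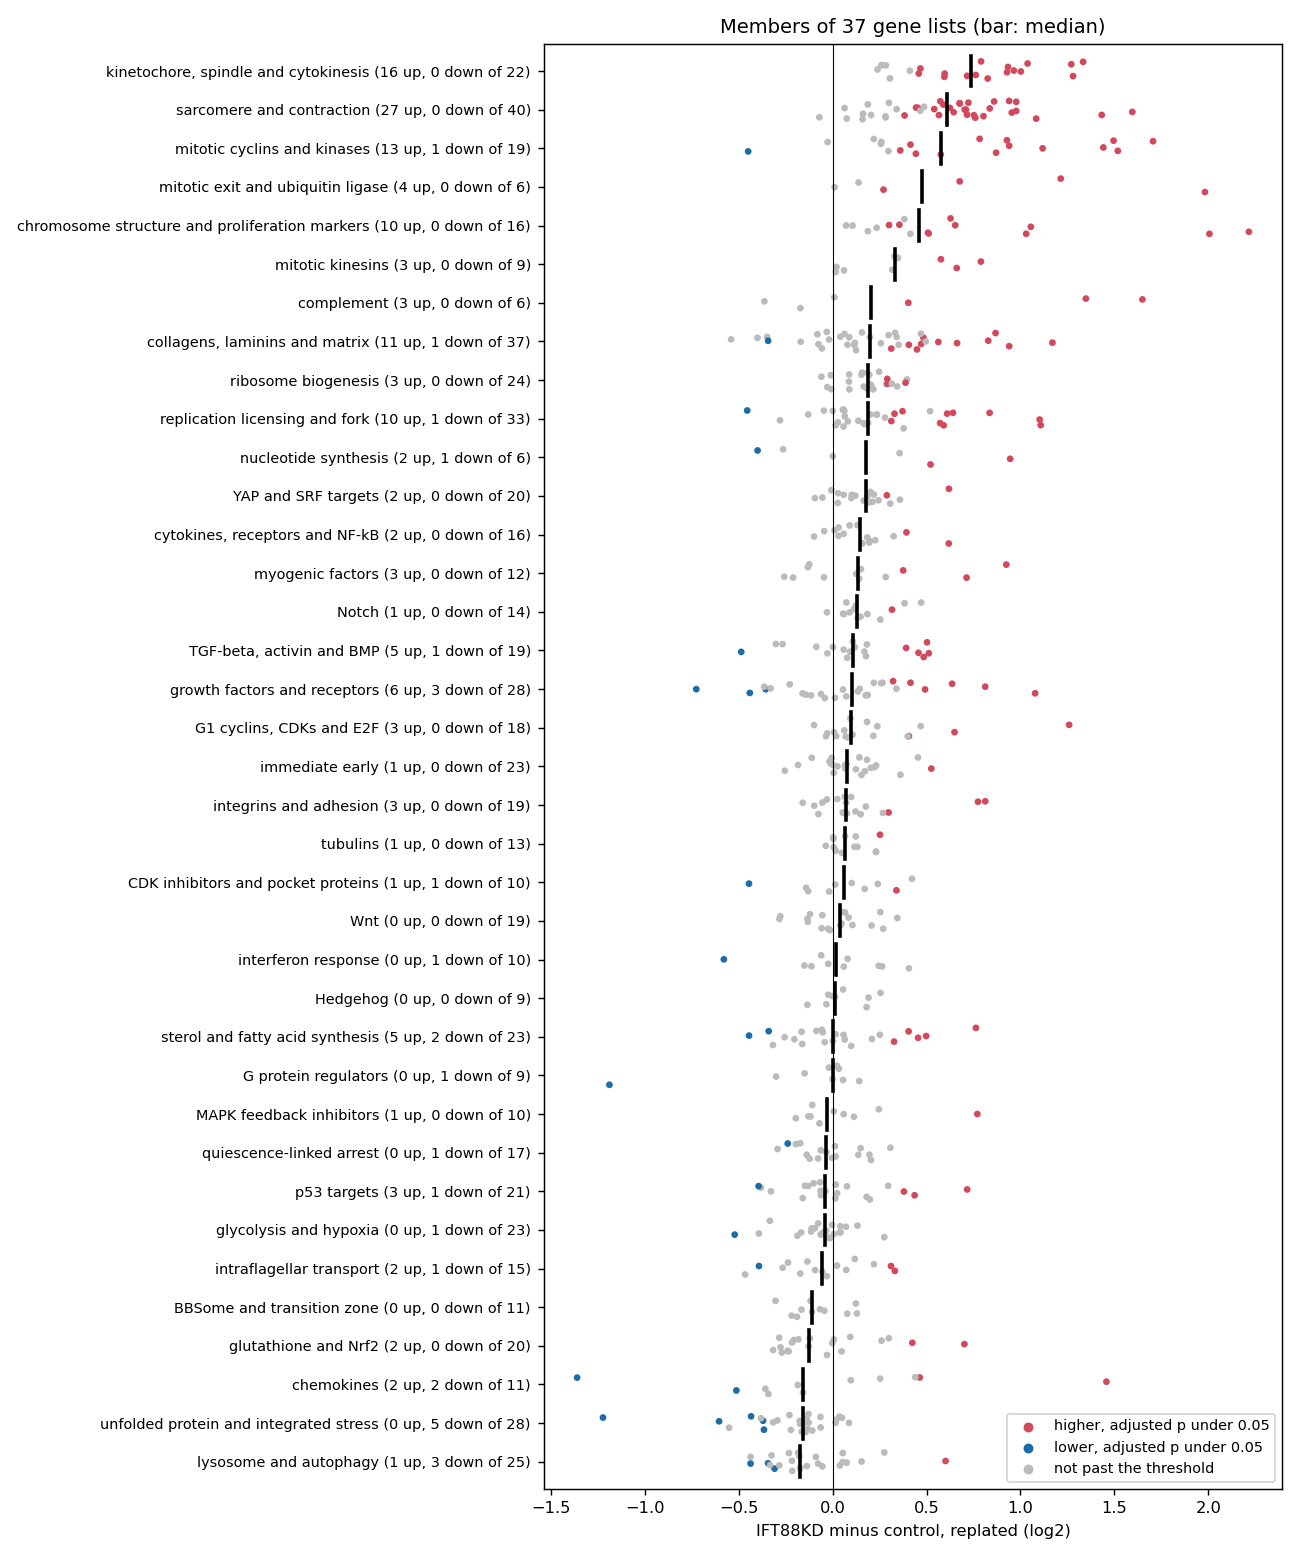
IFT88KD minus control change in replated cells (log2, horizontal axis) of the tested members of 37 gene lists, 1 point per gene, coloured by whether the adjusted p was under 0.05, with a bar at each list's median. The kinetochore, sarcomere and mitotic cyclin lists have the highest medians (0.74, 0.61 and 0.58), and the stress and lysosome lists the lowest (-0.16 and -0.17).

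Muscle structural genes formed the other broad rise. Of 40 tested sarcomere and contraction genes 27 rose, against 6.27% of all genes, and 0 fell in the paired limma fit (29 higher and 0 lower at an unadjusted p under 0.05), with a median of 0.61 log2. The median level of the list was 5.22, 5.08 and 4.96 log2 on control replicates 1 to 3 and 6.28, 5.91 and 5.93 on the IFT88KD ones, so every IFT88KD array was above every control array. In 32 of the 40 all 3 pairs rose, against 22% of all genes, and in 28 the groups did not overlap, with IFT88KD above in 9.42% of all genes. This result depended on pairing: without it 1 gene, Chrnb1, passed, and the median SE of the list was 0.37 without pairing and 0.13 with it. With the pairs as a random block 10 passed, and with the 6 replated arrays alone 24 passed with pairing and 7 without. Without replicate 1, 2 or 3 the paired numbers were 24, 21 and 16. Sarcomere proteins are made by myocytes, and more such cells or more transcript in each cannot be told apart here.

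Among the motor proteins Myh1, a fast skeletal myosin heavy chain, read 4.63, 3.53 and 3.82 log2 in control and 5.81, 5.28 and 5.67 in IFT88KD cells. The control arrays were far apart, replicate 1 being highest, and all 3 pairs rose. Myh1 rose by 1.60 log2 (SE 0.26, adjusted p = 0.00204) with pairing (0.0551 without), and its second probe set by 1.85. Myl4, the embryonic and atrial myosin light chain, read 5.53, 5.07 and 4.83 in control and 7.10, 6.19 and 6.42 in IFT88KD cells and rose by 1.43 log2 (SE 0.18, adjusted p = 3.30e-04, or 0.173 without pairing), while its second probe set changed by only 0.12. Myh7, the slow myosin heavy chain, rose by 1.08 (SE 0.16), Myl1, a fast essential light chain, by 0.94 (SE 0.14), and Mylpf, the fast regulatory light chain, by 0.80 (SE 0.11). Myosin heavy chain genes are similar in sequence, so probe sets for Myh1 and Myh7 may read a relative.

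The thin filament moved with the motors. Acta1, the skeletal muscle actin, read 8.72, 8.06 and 7.74 log2 in control and 9.56, 8.90 and 8.92 in IFT88KD cells, and rose by 0.95 log2 (SE 0.21, adjusted p = 0.0107). Replicate 1 was highest in both groups, which did not overlap, and the pair differences were 0.84, 0.84 and 1.18. Actc1, the cardiac actin, rose by 0.76 (SE 0.19), although these actins are near-identical in their coding parts. The troponin genes Tnnc2, Tnnc1, Tnni2, Tnni1, Tnnt3, Tnnt2 and Tnnt1 all rose, from 0.57 for Tnnt1 to 0.98 for Tnnc2. Tpm2, a tropomyosin and the brightest gene of the list, read 10.60, 10.15 and 10.31 in control and 10.49, 10.29 and 10.50 in IFT88KD cells and did not pass (0.07, SE 0.08). Tpm3 was the only member with a negative change (-0.07, SE 0.09), which did not pass either. Named calls that did not hold with 1 replicate left out were those of Acta1 (replicate 3, adjusted p = 0.0731), Actc1 (replicate 2 or 3, up to 0.106), Tnnt1 (replicate 2 or 3, up to 0.0666), Tnnc2 (replicate 2 or 3, up to 0.0535) and Tnnt3 (replicate 3, adjusted p = 0.0568).

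Genes of the acetylcholine receptor at the neuromuscular junction rose too, Chrnb1 by 0.68 (SE 0.11), Chrng by 0.45 (SE 0.10) and Chrna1 by 0.44 (SE 0.09). So did Mybph, a myosin-binding protein, by 0.98 (SE 0.16), Casq2, which stores calcium, by 0.75 (SE 0.10), Ryr1, the calcium release channel, by 0.59 (SE 0.13), and Ckm, the muscle creatine kinase, by 0.54 (SE 0.16). Ttn, the giant spring titin, showed pair differences of 0.73, 0.53 and -0.23, and Ldb3, a Z-disc protein, of -0.06, 0.23 and 1.23. These differed widely between pairs, and neither gene passed (0.34, SE 0.19, and 0.47, SE 0.22). Of the named genes, calls lost on leaving out 1 replicate were those of Chrng (replicate 3, adjusted p = 0.0761), Chrna1 (replicate 3, adjusted p = 0.0539), Ryr1 (replicate 2 or 3, up to 0.0633) and Ckm (replicate 1, 2 or 3, adjusted p up to 0.185).

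**Figure D3:**
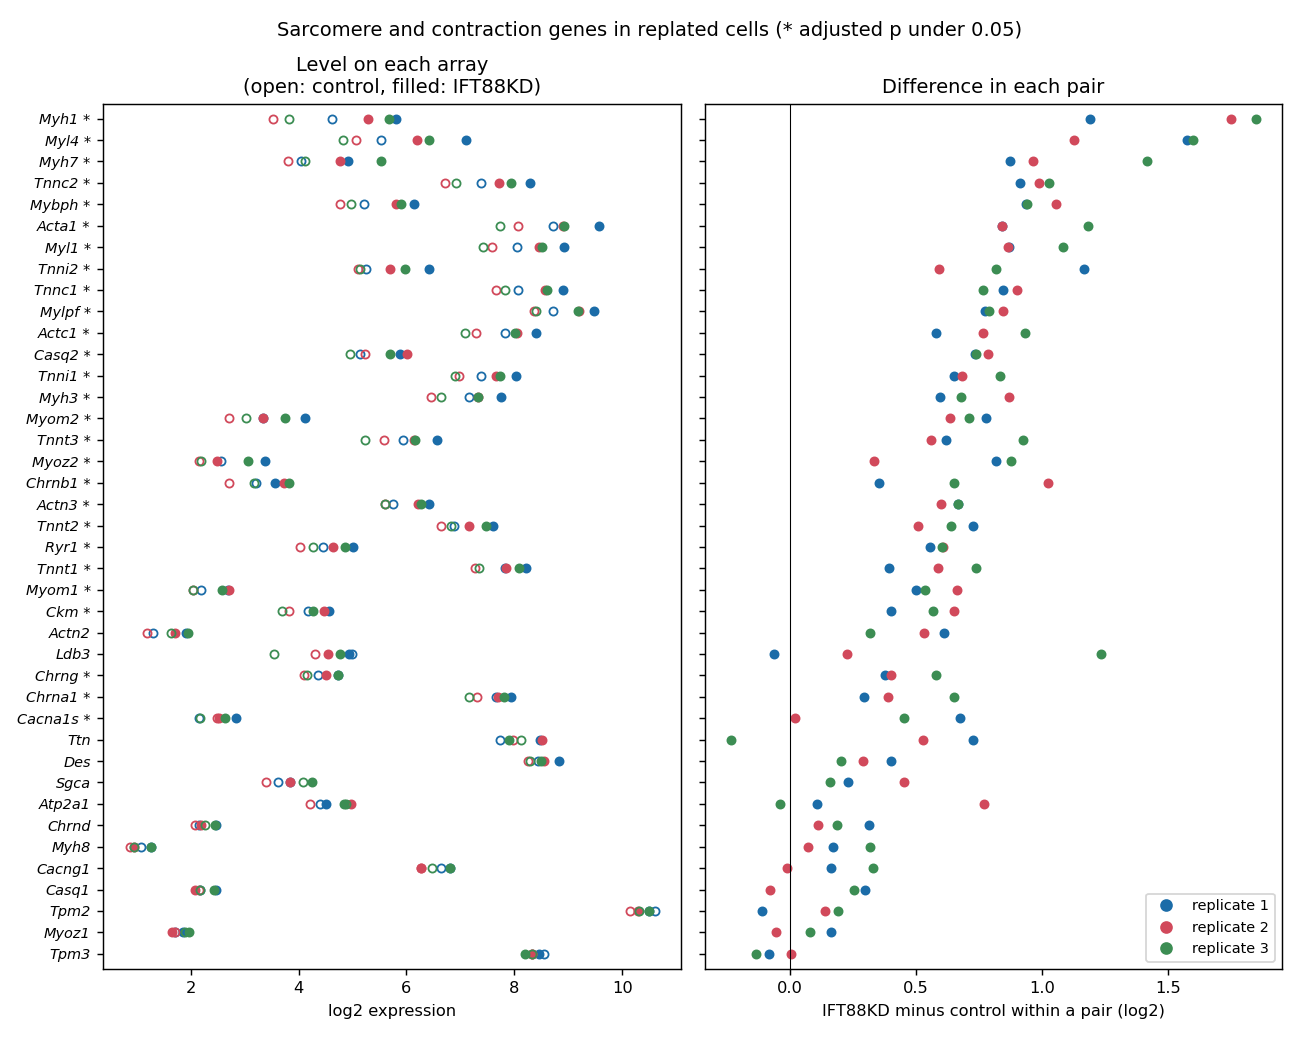
Left, log2 level of 40 sarcomere and contraction genes on each replated array (open circles control, filled IFT88KD, coloured by replicate number); right, the IFT88KD minus control difference within each pair, with a line at 0. Genes marked with an asterisk, 27 of the 40, had an adjusted p under 0.05, and the points of 32 genes lie above 0 in all 3 pairs.

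Of 12 myogenic regulators 3 rose with pairing, with a median of 0.13 log2, and 0 without it in limma (2 at an unadjusted p under 0.05). Myog, which encodes myogenin, read 7.58, 7.05 and 7.30 log2 in control and 8.12, 7.96 and 7.99 in IFT88KD cells. Groups did not overlap, and Myog rose by 0.71 log2 (SE 0.20, adjusted p = 0.0378) with pairing, with an adjusted p of 0.66 without it. Mef2c, a partner of the myogenic factors, read 3.44, 4.22 and 4.32 in control and 4.81, 5.21 and 4.73 in IFT88KD cells and rose by 0.92 log2 (SE 0.20, adjusted p = 0.00943, or 0.0935 without pairing). Id1, an inhibitor of myogenic factors, rose by 0.38 (SE 0.10), again only with pairing (adjusted p = 0.657 without). Myod1 changed by 0.13 log2 (SE 0.09, adjusted p = 0.409) and Myf5 by -0.13 (SE 0.09), and neither passed, nor did the other 7 tested members. Cdh15, which encodes the muscle cadherin M-cadherin, read 4.23, 3.62 and 3.92 in control and 4.93, 4.41 and 4.75 in IFT88KD cells and rose by 0.77 log2 (SE 0.09, adjusted p = 2.22e-04, or 0.0809 without pairing). Among the named genes, leaving out 1 replicate ended the calls for Myog (replicate 1, 2 or 3, adjusted p up to 0.186), Mef2c (replicate 1 or 2, up to 0.0854) and Id1 (replicate 1, 2 or 3, adjusted p up to 0.188).

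The motif CAGCTG, a form of the E-box that MYOD and myogenin bind, was searched in the same promoter windows, and it reads the same on both strands. It was found for 16 of 33 sarcomere genes with a promoter (48.5%), for 11 of the 23 among them that rose (47.8%), for 17.8% of all tested genes with a promoter and in 16.3% of all promoters of the table, while TTTGAA was found for 6.06% of the 33. The promoters of Mybph, Acta1 and Myl1 are shown to place the motif against the start, being those of the largest rises with a single promoter in the table that holds it. They lie at chr1:134193198-134193477 (plus strand), chr8:123894746-123895025 (minus) and chr1:66945027-66945306 (minus), with CAGCTG in capitals.
Mybph: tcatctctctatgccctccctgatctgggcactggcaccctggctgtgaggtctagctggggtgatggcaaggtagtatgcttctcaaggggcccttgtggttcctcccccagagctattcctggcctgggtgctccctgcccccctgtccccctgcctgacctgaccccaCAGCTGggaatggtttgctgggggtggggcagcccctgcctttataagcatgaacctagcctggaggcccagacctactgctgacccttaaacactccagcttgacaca
Acta1: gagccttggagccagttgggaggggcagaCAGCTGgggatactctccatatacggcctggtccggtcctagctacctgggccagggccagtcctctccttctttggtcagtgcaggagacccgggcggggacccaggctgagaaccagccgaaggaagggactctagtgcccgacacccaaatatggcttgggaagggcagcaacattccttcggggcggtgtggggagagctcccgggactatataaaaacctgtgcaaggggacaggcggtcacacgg
Myl1: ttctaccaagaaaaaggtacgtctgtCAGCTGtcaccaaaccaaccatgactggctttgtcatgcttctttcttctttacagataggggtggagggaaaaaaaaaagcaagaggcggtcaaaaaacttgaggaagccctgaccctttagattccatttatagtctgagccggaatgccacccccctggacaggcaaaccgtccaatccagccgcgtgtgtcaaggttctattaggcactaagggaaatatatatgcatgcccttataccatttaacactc
Counted from the start, the match begins at base -79 in Mybph, -221 in Acta1 and -224 in Myl1.

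Secreted immune factors moved in both directions. Cxcl12, which encodes the chemokine SDF-1, read 4.25, 4.17 and 3.96 log2 in control and 5.76, 5.71 and 5.29 in IFT88KD cells and rose by 1.46 log2 (SE 0.13, adjusted p = 2.04e-05), and its second probe set changed by 0.98. Ccl8, which encodes a chemokine for monocytes, read 5.82, 6.10 and 6.22 in control and 4.45, 4.95 and 4.65 in IFT88KD cells and fell by 1.36 log2 (SE 0.14, adjusted p = 7.53e-05). No control array overlapped an IFT88KD array for either gene, and the pairs were alike. Of the other 9 chemokines tested Ccl9 rose by 0.46 (SE 0.14) and Ccl5 fell by 0.51 (SE 0.13), both lost without pairing (adjusted p = 0.587 and 0.118). Cxcl1, the brightest chemokine, read 9.66, 10.38 and 10.68 in control and 9.73, 10.01 and 10.43 in IFT88KD cells and did not pass (-0.19, SE 0.13). On leaving out 1 replicate the named genes that lost their call were Ccl9 (replicate 1 or 3, adjusted p up to 0.263) and Ccl5 (replicate 1 or 3, up to 0.118).

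C1ra and C1s1, which encode the serine proteases that start the classical complement pathway, rose together. C1ra read 2.98, 2.86 and 3.19 log2 in control and 5.09, 4.41 and 4.48 in IFT88KD cells, a rise of 1.65 log2 (SE 0.17, adjusted p = 7.95e-05). C1s1 read 3.13, 2.96 and 3.58 in control and 5.33, 4.31 and 4.08 in IFT88KD cells, a rise of 1.35 log2 (SE 0.29, adjusted p = 0.0111), with IFT88KD replicate 1 well above the other arrays of both genes. Each gene has a close copy in the mouse genome that its probe set may read. Cd59a, which protects cells from complement, rose by 0.40 (SE 0.10, adjusted p = 0.221 without pairing), with 0.08 at its second probe set. Of 14 complement genes on the array 6 were bright enough to test, and 3 rose. Among 16 cytokine and NF-kB genes Il1r1, the interleukin 1 receptor, rose by 0.62 (SE 0.08) and Osmr, the oncostatin M receptor, by 0.39 (SE 0.09, adjusted p = 0.258 without pairing). Nfkbia, an NF-kB inhibitor and the brightest of them, changed by 0.03 (SE 0.08) and did not pass. Of 10 interferon response genes Isg20, an exonuclease, fell by 0.58 (SE 0.15, adjusted p = 0.261 without pairing). With 1 replicate left out, the named calls lost were those of C1s1 (replicate 1 or 2, adjusted p up to 0.1), Cd59a (replicate 1, 2 or 3, adjusted p up to 0.112), Osmr (replicate 2, adjusted p = 0.0732) and Isg20 (replicate 1 or 2, up to 0.176).

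Several genes best known from macrophages fell. Cd14, the lipopolysaccharide co-receptor, read 6.89, 6.87 and 6.65 log2 in control and 5.31, 5.71 and 5.51 in IFT88KD cells, and fell by 1.29 log2 (SE 0.11, adjusted p = 1.30e-05). Cd68, a lysosomal glycoprotein of macrophages, read 3.18, 2.73 and 3.42 in control and 2.18, 2.02 and 1.91 in IFT88KD cells and fell by 1.07 log2 (SE 0.16, adjusted p = 8.60e-04). Clec10a, a macrophage lectin, fell by 0.55 (SE 0.11). All 3 fell without pairing too, and no arrays of the groups overlapped. Of the 16 macrophage markers on the array 6 were tested, 3 of which did not pass (Csf1r -0.38, SE 0.17, Fcer1g -0.21, SE 0.12, and Laptm5 -0.15, SE 0.11). The other 10, Ptprc, Adgre1, Itgam, Lyz2, Tyrobp, Cd163, Mrc1, C1qa, C1qb and Ctss, lay under the 40th percentile on all 24 arrays and thus at the dim end of the signal. The summed linear level of the 16 was 155 to 172 on control and 84.2 to 95.4 on IFT88KD arrays. That sum is weighted toward Cd14, by far the brightest of them, and so mainly repeats its fall. The named calls not kept with 1 replicate left out were those of Clec10a (replicate 1, adjusted p = 0.0742).

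Slpi, which encodes a secreted inhibitor of leukocyte proteases and was among the brightest of the falling genes, read 10.33, 9.82 and 9.76 log2 in control and 9.11, 8.64 and 8.38 in IFT88KD cells. It fell by a like amount in every pair, by 1.26 log2 (SE 0.11, adjusted p = 1.90e-05) in all. Sprr2h, a small proline-rich protein gene of cornified epithelia, read 4.59, 4.73 and 4.62 in control and 3.37, 3.15 and 3.18 in IFT88KD cells and fell by 1.41 log2 (SE 0.18, adjusted p = 3.50e-04), the largest of the falls. Both groups were tight for Sprr2h, and its probe set may read related Sprr2 genes. Fetub, which encodes the secreted protease inhibitor fetuin B, fell by 1.02 log2 (SE 0.12, adjusted p = 2.27e-04). Padi2, which turns arginine into citrulline in proteins, fell by 1.01 (SE 0.14), and Car8, a carbonic anhydrase relative without that activity, by 0.86 (SE 0.19). Named calls that did not hold with 1 replicate left out were those of Car8 (replicate 1 or 3, adjusted p up to 0.0934).

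Receptor and ligand genes stood among the falls as well. Rgs5, which shuts off G protein signalling and is abundant in pericytes, read 9.46, 9.0 and 9.58 log2 in control and 7.75, 8.38 and 8.35 in IFT88KD cells and fell by 1.19 log2 (SE 0.18, adjusted p = 0.00103), with changes of -1.57 to -1.26 at 3 other probe sets. It was the only 1 of 9 tested regulators of G protein signalling to pass. Among 6 pericyte and smooth muscle markers Myh11 lay under the 40th percentile on all 24 arrays and Cnn1 rose, and the summed level overlapped between groups (2203 to 2965 in control and 2227 to 2507 in IFT88KD cells). Calcrl, a receptor for adrenomedullin and CGRP, fell by 0.91 log2 (SE 0.11, adjusted p = 1.90e-04), Npr3, the clearance receptor of natriuretic peptides, by 0.94 (SE 0.17), and Btc, which encodes the EGF receptor ligand betacellulin, by 0.90 (SE 0.11). Scg2, which encodes the granule protein secretogranin 2, fell by 0.86 (SE 0.15) to a level under the 40th percentile on every IFT88KD array, so the true size of its fall may be larger.

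Mydgf, which encodes a growth factor that is held in the endoplasmic reticulum and secreted, fell evenly. It read 6.10, 6.24 and 5.88 log2 in control and 4.85, 5.01 and 4.70 in IFT88KD cells, each pair falling by nearly the same amount, and fell by 1.22 log2 (SE 0.07, adjusted p = 3.30e-07), with -0.98 and -0.96 at other probe sets. Mydgf was 1 of 28 tested genes of the unfolded protein and integrated stress responses, of which 5 fell and 0 rose (median -0.16 log2, and 0 rose at an unadjusted p under 0.05). The other 4 were Trib3, a stress-induced pseudokinase, by 0.60 (SE 0.17), Ddit3, which encodes CHOP, by 0.43 (SE 0.13), the chaperone gene Dnajb9 by 0.37 (SE 0.10), and Canx, calnexin, by 0.37 (SE 0.07). Without replicates 2 and 3 the numbers lower were 1 and 2. None of these 4 passed without pairing (adjusted p 0.142 to 0.566). Hspa5, the main chaperone of the compartment, read 10.39, 11.22 and 11.20 in control and 10.25, 11.08 and 11.06 in IFT88KD cells and did not pass (-0.14, SE 0.09). Replicate 1 was the lowest Hspa5 array of both groups. Itprid2, a partner of inositol trisphosphate receptors, fell by 1.02 log2 (SE 0.09, adjusted p = 1.36e-05). Of the named genes, calls lost on leaving out 1 replicate were those of Trib3 (replicate 2 or 3, adjusted p up to 0.18), Ddit3 (replicate 2 or 3, up to 0.219), Dnajb9 (replicate 1, 2 or 3, adjusted p up to 0.158) and Canx (replicate 2, adjusted p = 0.0523).

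Of 25 lysosome and autophagy genes 3 fell and 1 rose, beside 4.84% lower and 6.27% higher among all genes. Ctsl, which encodes cathepsin L, read 11.52, 11.31 and 11.26 log2 in control and 11.07, 10.86 and 10.83 in IFT88KD cells and fell by 0.44 log2 (SE 0.07, adjusted p = 0.00182). Ctsd and Ctsa, further lysosomal proteases, fell by 0.34 (SE 0.08) and 0.31 (SE 0.08), and Gusb, a glucuronidase, rose by 0.60 (SE 0.13) while its second probe set changed by 0.09. The groups did not overlap for the 3 cathepsin genes, as for the 7.7% of all genes with IFT88KD below control. None of the 4 calls held without pairing (adjusted p 0.0557 to 0.186). The other 21 of 25 did not pass, and the median was -0.17. Among the named genes, leaving out 1 replicate ended the calls for Ctsd (replicate 1 or 3, adjusted p up to 0.0897), Ctsa (replicate 1 or 2, up to 0.162) and Gusb (replicate 2 or 3, up to 0.071).

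Beyond the lists, 2 of the leading rises were D17H6S56E-5 and Slc1a3. D17H6S56E-5 read 3.79, 3.56 and 3.98 log2 in control and 5.32, 5.62 and 5.57 in IFT88KD cells and rose by 1.72 log2 (SE 0.15, adjusted p = 1.36e-05), with 1.62 at its second probe set. Slc1a3, which encodes a glutamate transporter, read 2.41, 1.71 and 1.73 in control and 3.68, 3.42 and 3.05 in IFT88KD cells and rose by 1.43 log2 (SE 0.19, adjusted p = 3.64e-04), while 2 other probe sets changed by 0.08 and 0.83. The groups did not overlap for either gene.

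In the matrix list 11 of 37 rose and 1 fell, against 6.27% higher and 4.84% lower among all genes, with a median of 0.20 log2. Without pairing 2 rose, against 1.5% of all genes. Nid2, which encodes the basement membrane protein nidogen 2, read 4.02, 4.02 and 4.13 log2 in control and 5.18, 4.93 and 5.56 in IFT88KD cells and rose by 1.17 log2 (SE 0.13, adjusted p = 1.34e-04). Its relative Nid1 fell by 0.34 (SE 0.07, adjusted p = 0.0982 without pairing). Col1a1, a chain of type I collagen, rose by 0.94 (SE 0.19), Col8a1 by 0.83 (SE 0.15), Tnc, which encodes tenascin C, by 0.66 (SE 0.11), and Mmp9, a matrix metalloprotease, by 0.87 (SE 0.23), which all failed without pairing (adjusted p 0.0994 to 0.175). Col1a2, the other type I collagen gene, changed by 0.10, 0.0034 and 0.019 without replicates 1, 2 and 3, and passed in none of these fits. Col3a1, the brightest gene of the list, read 11.87, 11.86 and 11.81 in control and 11.64, 11.88 and 11.80 in IFT88KD cells and did not pass (-0.08, SE 0.09). Without replicate 2 the numbers were 6 higher and 0 lower. Of 19 adhesion genes Cdh11, a mesenchymal cadherin, Cdh15 and Itgav, the integrin alpha V chain, rose, Cdh11 by 0.81 (SE 0.12) and Itgav by 0.30 (SE 0.08), with adjusted p of 0.0688 and 0.0977 without pairing. Vcl, which encodes the focal adhesion protein vinculin, changed by -0.05 (SE 0.08). On leaving out 1 replicate the named genes that lost their call were Nid1 (replicate 2, adjusted p = 0.0882), Col1a1 (replicate 3, adjusted p = 0.0615), Mmp9 (replicate 1, adjusted p = 0.212) and Itgav (replicate 2 or 3, up to 0.165).

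Growth factor genes were split, with 6 of 28 higher and 3 lower, beside 6.27% higher and 4.84% lower among all genes. In the fit without pairing 1 was higher and 0 lower, beside 1.5% and 0.907% of all genes. Without replicates 1, 2 and 3 the numbers were 4, 3 and 3 higher and 0, 1 and 1 lower. Igf2, an autocrine growth factor of differentiating myoblasts, read 6.68, 6.18 and 6.65 log2 in control and 7.49, 7.05 and 7.40 in IFT88KD cells. All 3 pairs rose by nearly the same amount, and the change was 0.81 log2 (SE 0.10, adjusted p = 1.77e-04) with pairing and had an adjusted p of 0.443 without it. Its second probe set changed by 0.22. Fgf7, a fibroblast growth factor, rose by 1.08 (SE 0.25) with overlapping arrays (0.0601 without pairing), Irs1, a docking protein of insulin receptors, by 0.64 (SE 0.11), and Egfr by 0.49 (SE 0.10, adjusted p = 0.143 without pairing). Hgf, the hepatocyte growth factor that activates satellite cells, fell by 0.73 (SE 0.19, adjusted p = 0.0686 without pairing). Pdgfra, the receptor that marks fibro-adipogenic cells, fell by 0.44 (SE 0.12), and with it Pi16, another fibroblast marker, by 0.40 (SE 0.10). Of 5 tested fibroblast markers these 2 passed, and Dpt and Thy1 lay under the 40th percentile on all 24 arrays. The summed level of the list was 590 to 739 on control and 478 to 544 on IFT88KD arrays. Most of that sum came from Dcn, the brightest marker of the list, which did not pass. Dcn read 9.02, 8.75 and 9.16 log2 in control and 8.58, 8.56 and 8.60 in IFT88KD cells. The part of other cell types in these changes was not tested. With 1 replicate left out, the named calls lost were those of Fgf7 (replicate 1 or 2, adjusted p up to 0.124), Egfr (replicate 3, adjusted p = 0.0647), Hgf (replicate 1 or 3, up to 0.18), Pdgfra (replicate 1 or 2, up to 0.28) and Pi16 (replicate 1 or 2, up to 0.112).

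Of 19 TGF-beta, activin and BMP genes 5 rose and 1 fell, beside 6.27% higher and 4.84% lower among all genes. In the fit without pairing 1 passed, beside 2.41% of all genes. Without replicates 2 and 3 the numbers higher were 3 and 2. Tgfbr2, the type II receptor, rose by 0.48 (SE 0.09), with 0.07 at its second probe set. Ltbp2, a latency-binding protein, Tgfb3, a ligand, Fstl1, a follistatin-like glycoprotein, and Fst, the activin and myostatin trap follistatin, rose by 0.51 (SE 0.13), 0.50 (SE 0.14), 0.46 (SE 0.08) and 0.39 (SE 0.10), of which none passed without pairing (adjusted p 0.0545 to 0.364). Grem1, a secreted BMP antagonist, read 10.89, 10.94 and 10.93 log2 in control and 10.47, 10.64 and 10.19 in IFT88KD cells and fell by 0.49 log2 (SE 0.11, adjusted p = 0.0139), with an adjusted p of 0.236 without pairing. Inhba, which encodes the activin A chain and was the brightest, did not pass (0.17, SE 0.14). The named calls not kept with 1 replicate left out were those of Ltbp2 (replicate 2 or 3, adjusted p up to 0.176), Tgfb3 (replicate 2 or 3, up to 0.182), Fst (replicate 1 or 3, up to 0.15) and Grem1 (replicate 3, adjusted p = 0.101).

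The cilium and the signals it carries were covered by several short lists, to be read against the 11.1% called among all genes. Of 15 other intraflagellar transport genes Ift46 and Ift27, subunits of the same subcomplex as IFT88, rose by 0.33 (SE 0.08) and 0.31 (SE 0.09), and Ift122, of the retrograde subcomplex, fell by 0.39 (SE 0.09). All 3 calls were lost without pairing (adjusted p 0.111 to 0.355). The brightest, Ift20, changed by -0.09 (SE 0.08). None of 11 BBSome and transition zone genes passed in limma, with or without pairing (2 lower at an unadjusted p under 0.05 with it and 1 without), and their median was -0.11 log2. None of 9 Hedgehog genes passed either (0 at an unadjusted p under 0.05), including the pathway readouts Gli1 (-0.0015, SE 0.14) and Ptch1 (0.25, SE 0.13). Of 14 Notch genes Hes1, a target, rose by 0.32 (SE 0.07, adjusted p = 0.272 without pairing), and of 19 Wnt genes none passed (3 higher and 1 lower at an unadjusted p under 0.05). Of 13 tubulin genes Tubb5 rose by 0.25 (SE 0.07), lost without pairing (adjusted p = 0.164). Named calls that did not hold with 1 replicate left out were those of Ift46 (replicate 3, adjusted p = 0.0797), Ift27 (replicate 2 or 3, up to 0.202), Ift122 (replicate 2 or 3, up to 0.109), Hes1 (replicate 1 or 2, up to 0.0927) and Tubb5 (replicate 1, 2 or 3, adjusted p up to 0.181).

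The remaining lists moved little or in parts, and their counts stand beside 6.27% higher and 4.84% lower among all genes. Of 23 sterol and fatty acid genes 5 rose and 2 fell (1 and 0 without replicate 2), led by Scd2, a fatty acid desaturase, which read 9.12, 8.72 and 8.40 log2 in control and 9.67, 9.37 and 9.50 in IFT88KD cells and rose by 0.76 log2 (SE 0.11, adjusted p = 8.71e-04). Elovl6 and Fasn, which make and lengthen fatty acids, rose by 0.50 (SE 0.10) and 0.40 (SE 0.09), and Msmo1, a sterol enzyme, fell by 0.45 (SE 0.12), none of which passed without pairing (adjusted p 0.0696 to 0.149). Of 23 glycolysis and hypoxia genes Slc2a1, the glucose transporter GLUT1, read 10.18, 10.46 and 10.44 in control and 9.72, 9.88 and 9.92 in IFT88KD cells and fell by 0.52 log2 (SE 0.08, adjusted p = 0.00104), with -0.52 and -0.49 at other probe sets, and the other 22 did not pass. Of 21 p53 targets Zmat3, Aen and Fas rose by 0.72 (SE 0.10), 0.44 (SE 0.11) and 0.38 (SE 0.10) and Rrm2b fell by 0.39 (SE 0.11). Zmat3, an RNA-binding protein, was the only 1 of the 4 to pass without pairing (adjusted p = 0.0176). Of 20 glutathione and Nrf2 genes Gstm2, a glutathione transferase, rose by 0.70 (SE 0.12) and Gpx1, a peroxidase, by 0.42 (SE 0.08), and of 24 ribosome biogenesis genes Bop1, Nop2 and Rrs1 rose by 0.39 (SE 0.08), 0.29 (SE 0.07) and 0.29 (SE 0.09). Gpx1, Nop2 and Rrs1 did not pass without pairing (adjusted p 0.117 to 0.5). Of the named genes, calls lost on leaving out 1 replicate were those of Elovl6 (replicate 2, adjusted p = 0.0657), Fasn (replicate 1, 2 or 3, adjusted p up to 0.0577), Msmo1 (replicate 1 or 2, up to 0.26), Aen (replicate 1, 2 or 3, adjusted p up to 0.0925), Fas (replicate 1, 2 or 3, adjusted p up to 0.186), Rrm2b (replicate 1, 2 or 3, adjusted p up to 0.213), Bop1 (replicate 1, adjusted p = 0.0578), Nop2 (replicate 1 or 2, up to 0.105) and Rrs1 (replicate 1 or 3, up to 0.185).

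The replated effect was then set against the effect of the same siRNA in the other states, by the difference of effects in the same limma fit. Ift88 itself hardly changed in differentiating cells, as given above, so a fall of the target transcript was not seen in that state. Its difference from the replated change did not pass. It differed from the quiescent effect for 12 genes (0.14%, with 3 positive, 0.0349%, and 9 negative, 0.105%), from the proliferating effect for 151 (1.76%, with 104 positive, 1.21%, and 47 negative, 0.547%) and from the differentiating effect for 254 (2.95%, with 168 positive, 1.95%, and 86 negative, 1%). Without pairing these were 5, 31 and 32 genes. The 12 rested on few arrays, with 0 genes left without replated replicate 3 and 0 when only replated and quiescent arrays were fitted (805 and 560 genes at an unadjusted p under 0.05).

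Division genes separated replated and quiescent cells from the rest. The median IFT88KD change of the 72 was 0.90 log2 in quiescent, 0.54 in replated, 0.23 in differentiating and -0.00041 in proliferating cells. The replated change was larger than the proliferating one in 27 genes and smaller in 0, and larger than the differentiating one in 19 and smaller in 0, against 1.21% and 1.95% of all genes with positive differences. Without pairing the numbers larger were 17 and 7. Mki67 changed by 2.27 in quiescent, 0.03 in proliferating and 0.19 in differentiating cells, so that its replated change exceeded the proliferating one by 2.19 (SE 0.20, adjusted p = 1.21e-04). The difference from proliferating cells was 1.98 (SE 0.16, adjusted p = 3.62e-05) for Top2a and 1.72 (SE 0.12, adjusted p = 2.00e-05) for Cdk1. For Ccnd1 it was 1.29 (SE 0.12, adjusted p = 1.26e-04, or 0.178 without pairing), and the difference from differentiating cells was 0.83 (SE 0.12, adjusted p = 0.00328, or 0.581 without pairing). These calls held in all 6 fits that left out 1 replicate of either state.

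Quiescent cells had the highest median, and 3 of the 72 genes passed for a smaller change in replated cells, against 0.105% of all genes. Ect2, which activates RHOA at the cleavage furrow, changed by 1.52 (SE 0.15) in quiescent and 0.26 (SE 0.15) in replated cells, a difference of -1.26 (SE 0.21, adjusted p = 0.0383, or 0.144 without pairing). Nusap1, a spindle microtubule protein, rose in both, by 1.89 in quiescent and 0.83 in replated cells, with a difference of -1.07 (SE 0.16, adjusted p = 0.0273, or 0.144 without pairing). Kif11, the motor that separates spindle poles, differed by -0.90 (SE 0.15, adjusted p = 0.0315, or 0.513 without pairing). At an unadjusted p under 0.05 the replated change was smaller in 32 of the 72 and larger in 4, among them Cdk1, which just missed the adjusted threshold (0.66, SE 0.12, adjusted p = 0.0583). Fignl1, a DNA repair ATPase outside the division lists, differed by -1.12 (SE 0.16, adjusted p = 0.0199). Among the 6 fits that left out 1 replicate of either state, 3 or more ended each of these 4 calls, with an adjusted p of up to 0.148 for Ect2, 0.105 for Nusap1, 0.146 for Kif11 and 0.0546 for Fignl1.

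**Figure D4:**
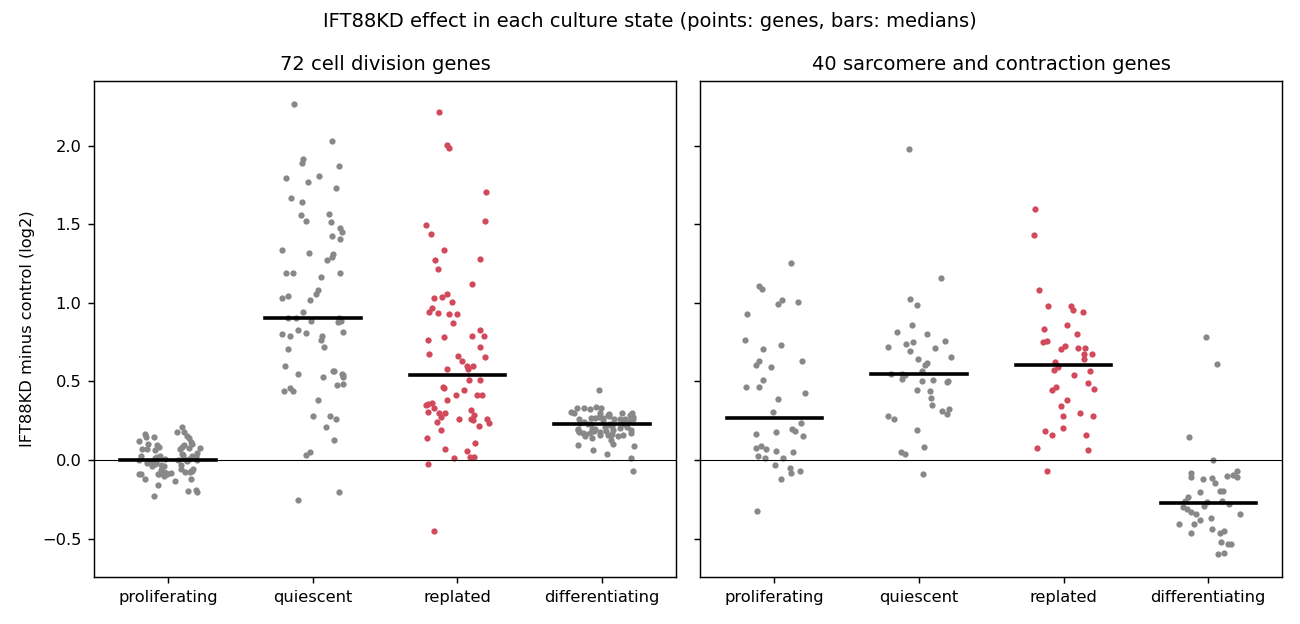
IFT88KD minus control change (log2) in each of the 4 culture states for 72 cell division genes (left) and 40 sarcomere and contraction genes (right), 1 point per gene, bars at medians, replated cells in red. Division gene medians are 0.90 in quiescent and 0.54 in replated cells and near 0 in proliferating cells, and sarcomere medians are 0.61 in replated and -0.27 in differentiating cells.

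The sarcomere genes separated replated from differentiating cells. Their median IFT88KD change was 0.61 log2 in replated, 0.54 in quiescent, 0.27 in proliferating and -0.27 in differentiating cells. The replated change was the larger in 26 of 40 genes against differentiating cells and in 3 against proliferating cells, and smaller in 0 of either, against positive differences in 1.95% and 1.21% of all genes. Without pairing 0 of the 40 passed in limma in either comparison (13 larger than in differentiating and 4 larger than in proliferating cells at an unadjusted p under 0.05). Myl4 differed from its differentiating change by 1.71 (SE 0.26, adjusted p = 0.00348, or 0.592 without pairing) and Myh7 by 1.60 (SE 0.22, adjusted p = 0.00247, or 0.37 without pairing). Between replated and quiescent cells 0 of the 40 passed in limma (1 positive and 2 negative at an unadjusted p under 0.05), which does not show that the effects were equal.

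Cd14, Ccl8 and Rgs5 fell in quiescent as well as in replated cells. Cd14 changed by -1.54 log2 in quiescent and -1.29 in replated cells, but by -0.32 in proliferating and 0.15 in differentiating cells, with differences of -0.97 (SE 0.15, adjusted p = 0.00638, or 0.0732 without pairing) and -1.45 (SE 0.15, adjusted p = 3.12e-04) from the last-named states. Ccl8 differed by -1.22 (SE 0.20, adjusted p = 0.0077) from proliferating cells, and Rgs5 by -1.10 (SE 0.25, adjusted p = 0.046, or 0.0633 without pairing), with an adjusted p of up to 0.145 for Rgs5 when 1 replicate was left out. Rgs5 exceeded the 40th percentile on only 12 arrays of the series, all replated ones among them. Whether dim signal limited its change in proliferating cells was not tested. Mydgf and Itprid2 fell in proliferating cells as well, with changes of -0.90 and -1.15 there against -1.22 and -1.02 after replating, and neither difference passed (-0.32, SE 0.10, adjusted p = 0.121, and 0.13, SE 0.12, adjusted p = 0.7). Clec10a was the largest positive difference from quiescent cells, with a change of -1.74 there and -0.55 after replating (1.19, SE 0.16, adjusted p = 0.0199), with replated levels of 2.59, 2.15 and 2.31 in control and 1.69, 1.97 and 1.74 in IFT88KD cells, the latter at or under the 40th percentile, and an adjusted p of up to 0.0698 with 1 replicate left out.

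Some effects of other states did not pass after replating. Ephx1, an epoxide hydrolase and p53 target, changed by 1.21 log2 in proliferating and -0.07 in replated cells (-1.28, SE 0.15, adjusted p = 7.49e-04), with replated levels of 7.54, 7.54 and 7.53 in control and 7.41, 7.32 and 7.68 in IFT88KD cells. Msln, mesothelin, changed by -1.60 and 0.17 (1.77, SE 0.29, adjusted p = 0.0077), Dglucy by 1.04 and 0.01 (-1.03, SE 0.18, adjusted p = 0.0112), and Sulf2, an extracellular sulfatase, by 1.26 and 0.24 (-1.02, SE 0.20, adjusted p = 0.0206, or 0.418 without pairing). Ccn4, a matricellular protein, and Aoc3, an amine oxidase, changed by 1.06 and 1.17 in quiescent cells and by 0.15 and 0.23 here (-0.92, SE 0.13, adjusted p = 0.0199, or 0.103 without pairing, and -0.94, SE 0.16, adjusted p = 0.0315). Cnn1 went the opposite way in quiescent cells, with -0.31 (SE 0.09) there against a rise of 0.62 after replating (0.93, SE 0.13, adjusted p = 0.0199, or 0.751 without pairing). With 1 replicate of either state left out, the highest adjusted p of these differences were 0.063 for Dglucy, 0.0753 for Sulf2, 0.0698 for Ccn4, 0.148 for Aoc3 and 0.076 for Cnn1, while Ephx1 and Msln passed in every such fit (up to 0.0483).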

How the data were processed

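Expression was read from 24 Affymetrix mouse arrays with 22690 probe sets, 3 for each of 2 siRNAs in 4 culture states. The values were deposited by the authors as log2 expression, and GCOS, Affymetrix Expression Console and affy are named in the submitters' processing notes. Tool versions, background correction and normalization are not stated in any source used. The array platform's annotation named 1 gene for 20380 probe sets, several for 691 and none for 1555, and only the first were used. Control probe sets (64) were set aside. Each of 12393 genes was represented by its brightest probe set (mean over all arrays, cross-hybridising probe sets avoided where another existed), and the 8600 genes that on 3 or more arrays exceeded that array's 40th percentile were tested.

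limma 3.58.1 in R 4.3.3 fitted all 24 arrays with 12 blocks (replicate number within a state) and an IFT88KD effect for each state, adjusted by Benjamini-Hochberg over all 8600 genes at a threshold of 0.05, two-sided. The block was used because the comparison pairs arrays by number. In replated cells the deviations of arrays of equal number correlated at 0.281 to 0.487 and those of unequal number at -0.394 to 0.134. Deviations were taken from the mean of each group and cancel within it. Positive values at equal numbers thus push the others down, and the contrast is partly fixed by construction. Where a value carries "without pairing" the fit had no block. Scripts were tested on simulated data, and Python 3.11.15 with pandas 2.3.3, numpy 2.4.6 and matplotlib 3.10.9 made the summaries and plots. The number of arrays limits the precision of every value.

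The genes and the 37 pathway and 10 marker lists were chosen with earlier results of these data known. Genes were named by rule: Ift88, the 15 largest rises and the 15 largest falls past the threshold without overlap between groups, up to 5 called members and the brightest member of each list, and the 6 largest differences in each direction from each of the 3 other states. Other list members named were chosen after their values were seen. Schwann and glial, adipocyte and lymphocyte markers had 0 calls, and of bone and cartilage markers Sox9 was lower by 0.32 log2 (SE 0.08, adjusted p = 0.0253). Alternatives covered pairing, arrays in the fit, normalization, filters, probe set rule, variance model and left-out replicates.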

Additional observations from a re-analysis of the deposited data

Results flagged for a closer look

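The results below stood out because the effect of the siRNA in replated cells differed from its effect in another state by a direct test of the difference in limma (adjusted p under 0.05). Against quiescent cells the replated effect was higher for Clec10a by 1.19 log2, for Cnn1 by 0.93 and for Rfxap, a regulator of MHC class II genes, by 0.62. The Rfxap call was lost without pairing (adjusted p = 0.653) and in all 6 fits that left out 1 replicate of either state (up to 0.148). The effect was lower for Ect2 (-1.26), Fignl1 (-1.12), Nusap1 (-1.07), Aoc3 (-0.94), Ccn4 (-0.92) and Kif11 (-0.90).

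Against proliferating cells the replated effect was higher for Mki67 by 2.19 log2, Top2a by 1.98, Ube2c by 1.95, D17H6S56E-5 by 1.88, Msln by 1.77 and Cdk1 by 1.72. For Msln the difference came from the proliferating cells, with changes of -1.60 there and 0.17 in replated cells. The replated effect was lower for Ephx1 (-1.28), Ccl8 (-1.22), Rgs5 (-1.10), Dglucy (-1.03), Sulf2 (-1.02) and Cd14 (-0.97). Rgs5 exceeded the 40th percentile on only 12 arrays of the series, and whether dim signal limited its proliferating change was not tested.

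Against differentiating cells the replated effect was higher for Mki67 by 2.03 log2, Top2a by 1.81, Myl4 by 1.71, Ube2c by 1.70, D17H6S56E-5 by 1.66 and Myh7 by 1.60. It was lower for Cd14 (-1.45), Sprr2h (-1.31), Stmn2 (-1.27), Cd68 (-1.19), Ccl8 (-1.19) and Slpi (-1.19). The Sprr2h call was lost without pairing (adjusted p = 0.0595) and in 3 of the 6 fits that left out 1 replicate (up to 0.0648), and the Cd68 call in 1 of them (0.0504). Cd68 exceeded the 40th percentile on only 8 arrays of the series, and its replated IFT88KD levels of 2.18, 2.02 and 1.91 log2 were close to it. Whether dim signal limited the Cd68 change in differentiating cells was not tested. Stmn2, a relative of Stmn1 best known from neurons, changed by -0.72 (SE 0.09) in replated and 0.55 (SE 0.09) in differentiating cells. Ift88 itself hardly changed in differentiating cells, and the causes of these differences were not tested.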

How the results depend on the processing

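Counts of calls depended on pairing. Without the replicate block 207 genes passed in replated cells (955 with it), and the differences from quiescent, proliferating and differentiating cells numbered 5, 31 and 32 (12, 151 and 254 with it). With only the compared states in the fit and the block, replated cells had 256 genes, the difference from quiescent cells 0 (560 at an unadjusted p under 0.05) and that from proliferating cells 71. With only those states and no block the numbers were 80, 0 (244 at an unadjusted p under 0.05), 24 and, for differentiating cells, 31. The difference from quiescent cells also moved to 27 with a random block, 5 after quantile normalization and 21 with a variance trend and robust estimation. Leaving out 1 replicate gave 496 to 612 genes in replated cells and 0 to 8, 53 to 114 and 83 to 246 for the differences from quiescent, proliferating and differentiating cells (3 and 6 without quiescent replicates 1 and 2, 85 and 97 without proliferating ones, 129 and 141 without differentiating ones). The other alternatives run kept these 4 counts within 1.5 times, and no named gene reversed a called direction. Of 127 named called genes 66 lost their call without the block, and 37, 39 and 40 without replicates 1, 2 and 3. With only the replated arrays in the fit 57 lost it with the block and 85 without. The losses were 19 with array weights, 15 with the mean of probe sets, and 11 each with a random block and with no filter. They were 7 after quantile normalization, 5 with a variance trend and robust estimation, and 1 after median centring. Named called genes had 72 other probe sets, of which 38 changed by over 1.5 times less or in the opposite direction, 5 of them with the opposite sign. The causes of these shifts were not tested. Dim control signal limits the size of changes in 30 of the 72 division genes.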

Other observations

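The following genes stand outside the lists and were chosen after their values were seen. Further muscle genes rose in the paired limma fit. Cav3, which encodes the caveolin of muscle membranes, read 2.67, 1.85 and 2.38 log2 in control and 3.70, 2.94 and 3.25 in IFT88KD cells and rose by 1.0 log2 (SE 0.16, adjusted p = 0.00181). Mb, which encodes myoglobin, rose by 0.88 (SE 0.13), the carbonic anhydrase gene Car3 by 0.83 (SE 0.12), Apobec2, a muscle member of the cytidine deaminase family, by 0.82 (SE 0.16), and Itgb1bp2, which encodes the integrin-binding protein melusin, by 0.70 (SE 0.08). Mymk, which encodes the fusion protein myomaker, rose by 0.45 (SE 0.11), with an adjusted p of up to 0.13 when 1 replicate was left out. Like most of the sarcomere genes, these 6 did not pass without pairing (adjusted p 0.0602 to 0.748). In each of them the lowest IFT88KD array lay above the highest control array, as in 9.42% of all genes. Since the 6 were picked after their values were seen, that is no added support.

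Lbp, Cebpd and Cp were also higher. Lbp, which encodes the lipopolysaccharide-binding protein, read 2.39, 2.22 and 2.54 log2 in control and 3.78, 3.37 and 3.40 in IFT88KD cells and rose by 1.14 log2 (SE 0.14, adjusted p = 2.66e-04). Cebpd, a transcription factor of inflammation, rose by 0.83 (SE 0.15) and Cp, which encodes the copper protein ceruloplasmin, by 0.65 (SE 0.10), and both passed without pairing as well (adjusted p = 0.029 and 0.0402). Among genes best known from blood cells Csf2rb2, a beta chain of the interleukin 3 receptor, read 4.12, 3.91 and 4.08 in control and 3.02, 3.14 and 3.45 in IFT88KD cells and fell by 0.83 log2 (SE 0.11, adjusted p = 3.85e-04), though its probe set may read the near copy Csf2rb. Fyb, an adaptor protein of leukocytes, fell by 0.75 log2 (SE 0.09, adjusted p = 1.75e-04). Both passed without pairing, with adjusted p of 7.04e-04 and 4.87e-04. Lbp, Cebpd, Cp, Csf2rb2 and Fyb each kept their call with any 1 replicate left out (highest adjusted p 0.0028 to 0.0409).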
